A study of Homo sapiens with 12 samples.

Results

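JVM3 is an established human line of malignant B cells, which the labels class under chronic lymphocytic leukaemia (CLL). JVM3 cells with the U1 mutation g.3A>C were set against JVM3 cells with wild-type U1, which asks what the mutant small nuclear RNA changes in splicing and in RNA levels. All libraries labelled JVM3 were taken, 4 of the 12 RNA sequencing libraries of the series, as 2 technical replicates with mutant U1 and 2 with wild-type U1. The other 8 libraries came from the lines HG3 and MEC1 in the same layout and are used only to show where JVM3 differs. The sources used here do not say how the mutant U1 was brought into the cells, whether a group is 1 clone, or what the wild-type cells carry beside their own U1. Replicates are called technical in the series text, so every p-value below measures the spread between technical replicates and not between cultures.

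The mutant libraries held 35459769 and 39716818 reads counted in genes, and the wild-type libraries 30065307 and 35864935. Splice junctions were counted in 1 column for each line and U1 status, with 17917160 junction reads in mutant JVM3 and 15537369 in wild-type JVM3. Junctions therefore have no replicates: their percentages carry 95% Wilson intervals, which cover counting error only, and no test. Reads outside annotated features made up 17.79% and 19.05% of all reads in mutant libraries, against 21.92% and 21.36% in wild-type libraries, and the part of this gap in the results below was not tested. The B-cell antigen gene MS4A1 stood at 968 and 988 CPM (normalised read counts scaled to a common library size) in mutant libraries and 1047 and 1054 CPM in wild-type libraries. CD5, an antigen that defines CLL cells, was close to absent, with 0.0305 and 0.137 CPM in mutant libraries and 0.424 and 0.508 CPM in wild-type libraries. ROR1, another antigen of this leukaemia, stayed under 1 CPM in all 4 libraries. The monocyte list summed to 19.9 and 21.5 CPM in mutant libraries and 25.9 and 24.4 CPM in wild-type libraries, with 7 of 11 genes under 1 CPM, FCN1 at 0 in all 4 JVM3 libraries and the integrin gene ITGAM at 10.1 and 9.87 CPM in mutant libraries and 13.5 and 13.2 CPM in wild-type libraries. The 10 granulocyte markers summed to 0.213 and 0.0274 CPM in mutant libraries and 0.141 and 0.179 CPM in wild-type libraries. The T-cell list summed to 208 and 207 CPM in mutant libraries and 189 and 183 CPM in wild-type libraries, with 9 of 14 genes under 1 CPM and CD3G and CD8B at 0 in all 4. Of this sum the transcription factor gene TCF7 gave 176 and 174 CPM in mutant libraries and 153 and 146 CPM in wild-type libraries.

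U1 starts the assembly of the spliceosome. Its 5' end pairs base by base with the donor, the 5' splice site that joins the last bases of an exon to the first bases of the intron, before U6 takes over the site. Base 3 of U1 is the A that faces intron position +6, where a U in the transcript (T in DNA letters) is the matching base, so a C at base 3 would pair with a G there. The first 20 bases of RNU1-1, from the GENCODE 29 transcript of this gene on chromosome 1 and read 5' to 3', are shown because every result on donors refers to base 3, in capitals:
RNU1-1 bases 1 to 20: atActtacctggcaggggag

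The donors below are shown because they are the clearest pairs in which reads at 1 acceptor moved from a donor lost in mutant JVM3 to a donor gained there, together with pairs that go against the common pattern. Each is the last 3 exon bases and first 6 intron bases, 5' to 3', with the base at intron position +6 in capitals. They were read from GENCODE 29 transcripts by counting the intron length back from the annotated acceptor, which is possible only where an exon of another transcript covers the donor. Of 22428 annotated donors read this way, 98.4% began the intron with GT.
VPS29 gained: ctagtaagG
VPS29 lost: agagtaagT
ZC3H11A gained: tcggtgcgG
ZC3H11A lost: ctggtaacT
GAS5 gained: tgggtaagG
GAS5 lost: aaggtacaT
HPS4 gained: atggtaaaG
HPS4 lost: atggtaagT
CLEC2D gained: atggtgagG
CLEC2D lost: acagtaagT
RPS15A gained: aaggttcgG
RPS15A lost: ccggtgagT
SPPL2A gained: aaagtaagG
SPPL2A lost: aaggtaggG
CYTH2 gained: gaggtaggT
CYTH2 lost: tgggtacgT
SNHG16 gained: atggtgagA
SNHG16 lost: atggtaagG

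Mutant JVM3 cells used donors with G at +6 more, and the share of such donors grew with the size of the gain. Use of a junction is its percent of all reads at the same acceptor, and a gain or loss is a change of at least 20 percentage points at acceptors with at least 50 reads in both columns. Of 61328 junctions at 25358 acceptors, 223 (0.364%) were gained in mutant JVM3 and 219 (0.357%) were lost, 442 (0.721%) in all, at 245 acceptors in 209 named genes. Sequences could be read for 60 gained donors, and the counts of bases keep only donors that began the intron with GT. Among these gained donors, 37 of 57 (64.9%, 95% Wilson interval 51.9 to 76.0) had G at +6. Among donors whose use moved by less than 5 points, 2429 of 11284 (21.5%, 20.8 to 22.3) had it, and among lost donors 12 of 54 (22.2%, 13.2 to 34.9). Smaller gains lay between these values, with 123 of 241 donors (51.0%, 44.8 to 57.3) at 10 to 20 points and 249 of 666 (37.4%, 33.8 to 41.1) at 5 to 10 points. T at +6, the base that matches wild-type U1, was carried by 22.8% (13.8 to 35.2) of gained donors, 43.3% of donors that moved by less than 5 points and 46.3% (33.7 to 59.4) of lost donors. Position +5 differed less, with G in 82.5% of gained donors against 69.7% of donors that moved by less than 5 points. A junction can only be gained if it takes at least 20% of its acceptor in mutant cells, so the comparison was repeated over junctions that reach 20% in either JVM3 column: of those that moved by less than 5 points, 1102 of 5030 donors (21.9%, 20.8 to 23.1) had G at +6. Donors of gained junctions in the annotation had it in 26 of 42 cases (61.9%, 46.8 to 75.0), and donors of gained junctions outside it in 11 of 15 (73.3%, 48.0 to 89.1). In the other lines the same count gave 83 of 122 gained donors (68.0%) in HG3 and 88 of 137 (64.2%) in MEC1.

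**Figure D1:**
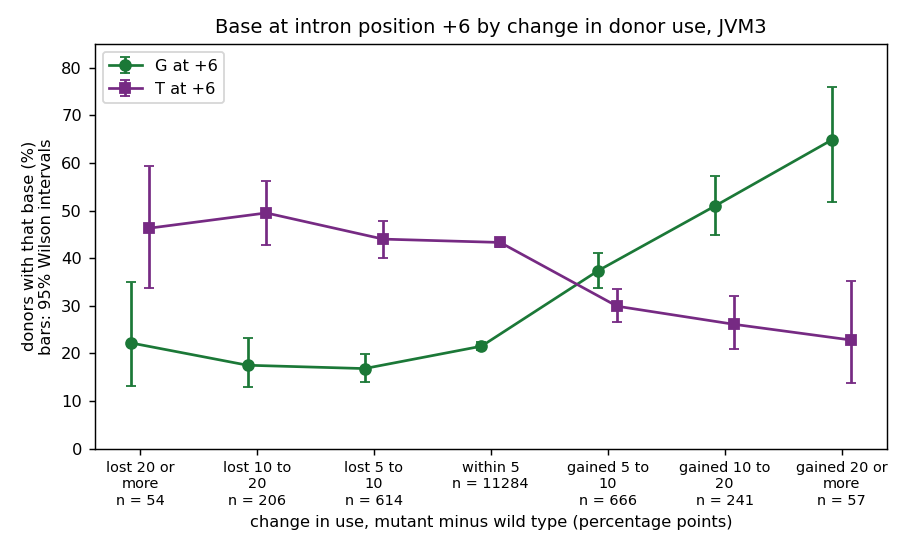
Percent of JVM3 donors with G (circles) or T (squares) at intron position +6 (vertical axis) in 7 classes of change in use, mutant minus wild-type U1 in percentage points (horizontal axis), with 95% Wilson intervals and the number of donors. G lies at 21.5% for donors that moved by less than 5 points and at 64.9% for donors gained by 20 points or more, while T lies at 43.3% and 22.8%.

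Among the 22 acceptors where both the gained and the lost donor could be read, 16 gained a donor with G at +6, and in 9 of them the donor lost had T there. VPS29, a subunit of the retromer that returns membrane proteins from endosomes, used the gained donor printed above, 320 bases downstream of the lost one, in 43.5% of 92 reads in mutant JVM3 and in 0 of 57 reads in wild-type JVM3. ZC3H11A, an RNA-export gene, used its gained donor in 89.9% of 327 reads in mutant JVM3 and 49.3% of 213 reads in wild-type JVM3. GAS5, a noncoding RNA that hosts small nucleolar RNAs, had the most reads after RPS15A: its gained donor took 70.8% of 4419 reads in mutant JVM3 and 44.0% of 3312 reads in wild-type JVM3. In RPS15A, which encodes a protein of the small ribosomal subunit, the gained donor took 42.4% of 4956 reads in mutant JVM3 and 21.6% of 3622 reads in wild-type JVM3, at a pair of donors 66 bases apart. In CLEC2D, which encodes a lectin that natural killer cells recognise, the gained donor took 40.4% of 648 reads in mutant JVM3 and 15.4% of 722 reads in wild-type JVM3. These pairs all have T at +6 in the lost donor and G in the gained one. SPPL2A and IL17RB had G at +6 in both donors, CYTH2 had T in both, and SNHG16 gained a donor with A and lost one with G, the gained one taking 57.7% of 1261 reads in mutant JVM3 and 37.4% of 1382 reads in wild-type JVM3.

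The largest gain in a named gene was in CREM, a cAMP-responsive transcription factor. Its annotated junction from 35416495 to 35437296 on chromosome 10 (hg19, plus strand) took 75.2% (69.8 to 79.9) of 278 acceptor reads in mutant JVM3 and 2.2% (0.605 to 7.66) of 91 reads in wild-type JVM3. MYSM1, a histone H2A deubiquitinase, gained a junction outside the annotation that took 65.2% (55.1 to 74.2) of 92 reads in mutant JVM3 and 4.23% (1.45 to 11.7) of 71 reads in wild-type JVM3. The intervals of the mutant and wild-type columns were far apart in both genes. SPPL2A, an intramembrane protease of B cells, gained an annotated junction that took 89.2% (85.5 to 92.0) of 360 reads in mutant JVM3 and 29.2% (24.0 to 34.9) of 264 reads in wild-type JVM3. MAP3K3, a kinase of the MAP kinase cascade, gained an annotated junction with 91.4% of 70 reads in mutant JVM3 and 33.3% of 63 reads in wild-type JVM3. ICE1, a subunit of the little elongation complex that transcribes small nuclear RNAs, gained an unannotated junction with 55.1% of 136 reads in mutant JVM3 and 1.57% of 127 reads in wild-type JVM3. The other named gains of that size were in IL17RB (67.2% in mutant JVM3, 14.9% in wild-type JVM3), CCR7 (58.6% in mutant JVM3, 9.04% in wild-type JVM3), CANT1 (51.4% in mutant JVM3, 1.92% in wild-type JVM3) and the haem exporter FLVCR1 (66.4% in mutant JVM3, 18.6% in wild-type JVM3). The CCR7 acceptor, in a chemokine receptor gene, was not in the annotation.

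CD44, the hyaluronan receptor, had its largest change at an annotated junction from 35211612 to 35236399 on chromosome 11 (plus strand), which fell to 40.9% (39.3 to 42.5) of 3554 reads in mutant JVM3, against 87.9% (86.9 to 88.9) of 4119 reads in wild-type JVM3. MSI2, an RNA-binding protein of stem cells, gained an unannotated junction at 28.6% (23.5 to 34.4) of 262 reads in mutant JVM3 and 0.42% (0.0742 to 2.34) of 238 reads in wild-type JVM3. POLD1, the catalytic subunit of DNA polymerase delta, had an unannotated junction at 16.2% (9.53 to 26.2) of 74 reads in mutant JVM3 and 0.962% (0.17 to 5.25) of 104 reads in wild-type JVM3, which is under the 20-point rule. Among abundant genes whose counts changed, DENND2D, an exchange factor for Rab proteins, gained an unannotated junction at 38.7% of 271 reads in mutant JVM3 and 4.61% of 738 reads in wild-type JVM3. TARS1, the threonyl-tRNA synthetase, gained one at 26.6% (22.6 to 31.1) of 417 reads in mutant JVM3 and 1.3% (0.816 to 2.08) of 1303 reads in wild-type JVM3. WDR43, a ribosome biogenesis factor, gained one at 24.9% of 462 reads in mutant JVM3 and 0.289% of 692 reads in wild-type JVM3. TIA1, a protein that helps recruit U1 to weak donors, gained one at 22% of 168 reads in mutant JVM3 and 1.72% of 174 reads in wild-type JVM3. EIF2AK1, a kinase that stops translation when haem is short, had a smaller change, with an unannotated junction at 9.02% (5.11 to 15.4) of 122 reads in mutant JVM3 and 0 of 222 reads in wild-type JVM3, where the interval reaches 1.7%.

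**Figure D2:**
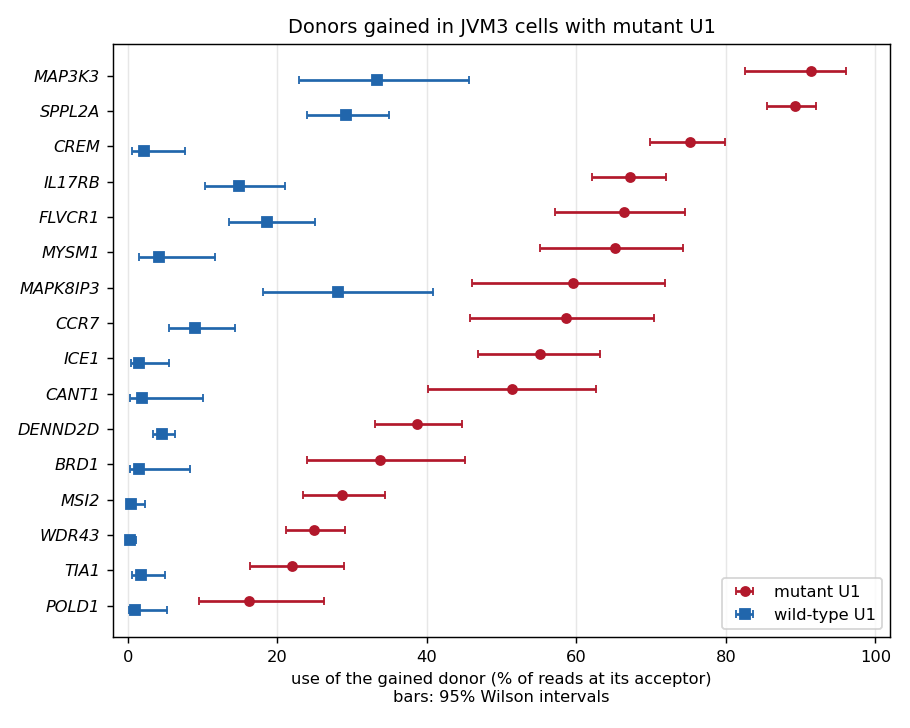
Use of the junction that gained most in 16 named genes (rows), as a percent of reads at its acceptor (horizontal axis), in mutant (circles) and wild-type (squares) JVM3, with 95% Wilson intervals that cover counting error only. The mutant value lies above the wild-type value in each row, from 16.2% against 0.962% in POLD1 to 91.4% against 33.3% in MAP3K3.

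Gained donors lay mostly far from the donor that lost most at the same acceptor, and downstream of it. Whether the 2 donors belong to the same exon was not tested. Of the 223 gains, 184 were more than 300 bases away from the donor that lost most, 141 of them downstream and 43 upstream. The 39 nearer ones lay a median of 56 bases away, 25 downstream and 14 upstream, and 16 of the shifts were a multiple of 3. At annotated acceptors, 48 of 199 gained junctions (24.1%) started at a donor outside the annotation, against 8 of 198 lost junctions (4.04%). Over all other junctions measured at annotated acceptors, whatever their use, 11522 of 57441 (20.1%) did so, a share near that of the gains. A lost junction must take at least 20% of its acceptor in wild-type cells. Among junctions that reached 20% of their acceptor in either column and moved by less than 5 points, 123 of 21893 (0.562%) did so. In wild-type JVM3, 54 of the 223 gained junctions took less than 5% of their acceptor. Of the 12 largest gains, 3 were in places with no matched gene on chromosomes 13, 14 and 17, with the donor that lost most 2 to 38 bases away. The junctions on chromosomes 13 and 14 had 0 reads in both HG3 columns. In MEC1 the one on 13 had 0 reads too, and the acceptor on 14 had none. The one on chromosome 17 took 100% of acceptor reads in both HG3 columns and in wild-type MEC1, so it could not rise there. In mutant MEC1 it took 26.5%.

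Some junctions were read in mutant JVM3 and never in wild-type JVM3. With at least 10 reads in one column and 0 in the other, there were 533 in mutant JVM3 and 219 in wild-type JVM3. After thinning the mutant column to the total of the wild-type column, the counts were 441 and 225. None of the 10 deepest in mutant JVM3 ended at an annotated acceptor. They had 460 to 2770 reads, they included junctions in RPL23A, RPL41, RPL24 and GAPDH, and none was confined to the mutant columns of all 3 lines. At annotated acceptors, a restriction chosen after seeing the data, there were 185 in mutant JVM3 and 50 in wild-type JVM3. Of the 185, 19 were also read in mutant HG3 and mutant MEC1 and in no wild-type column, against 1 of the 50 in the mirrored count. The deepest was in RPL11, a large-subunit ribosomal protein, with 361 reads in mutant JVM3 (1.46% of its acceptor), 402 in mutant HG3 and 244 in mutant MEC1, while 0 of 20769 acceptor reads in wild-type JVM3 allow a share of up to 0.0144%. ELF1, an ETS transcription factor of lymphocytes, had 79, 73 and 228 reads in mutant JVM3, HG3 and MEC1, which was 12.7% of its acceptor in mutant JVM3, and 0 of 562 in wild-type JVM3 allow up to 0.534%. TNFRSF1A, the main receptor for tumour necrosis factor, had 31 reads in mutant JVM3, 40.3% of its acceptor, and 0 of 88 in wild-type JVM3 allow up to 3.41%. ZNF480, a zinc finger gene, had 46 reads in mutant JVM3, 25.1% of its acceptor, and 0 of 168 in wild-type JVM3 allow up to 1.79%. The upper limits given for these 4 are 3 reads over the acceptor reads in wild-type JVM3, and are not Wilson limits. These 4 were named after their values were seen.

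Most junctions gained in JVM3 also moved up in the other lines. Of the 175 JVM3 gains that could be measured in HG3, 162 moved up there, and of 172 in MEC1, 158 moved up. For the 150 measured in all lines, which were chosen by their gain in JVM3, the median change was 25.9 points in JVM3, 29.9 points in HG3 and 27.4 points in MEC1, and JVM3 lay below HG3 in 90 and below MEC1 in 79. For 290 junctions chosen by their gain in HG3 and measured in all lines, the median change was 15.1 points in JVM3 and 23.5 points in MEC1, and JVM3 lay below MEC1 in 221 of them. For 341 junctions chosen by their gain in MEC1, the median change was 14.1 points in JVM3 and 20 points in HG3, and JVM3 lay below HG3 in 263. By the 20-point rule, 0.721% of junctions changed in JVM3, 1.25% of 60305 in HG3 and 1.43% of 61395 in MEC1. With 1 column per line and status these differences between lines have no test.

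The sample titles name RNU1 without saying which copy. RNU1-1, the U1 gene taken here, stood at 58.5 and 59.1 CPM in mutant libraries and 42.5 and 43.5 CPM in wild-type libraries. The mutant libraries were higher without overlap, by 1.37-fold (log2 fold change 0.45 ± 0.20 SE), but the difference did not pass the test (edgeR quasi-likelihood adjusted p = 0.194). It passed with DESeq2 (adjusted p = 0.0492) and in edgeR on the 4 JVM3 libraries alone (adjusted p = 4.12e-11). The JVM3 difference was smaller than the mean of those in HG3 and MEC1 by 1.41 on the log2 scale (edgeR adjusted p of that difference 0.0144). The other 59 U1 genes and copies together gave 43.1 and 40.6 CPM in mutant libraries and 52.6 and 53 CPM in wild-type libraries. U1 copies can share sequence, so not every read can be assigned to 1 of them with certainty. Gene counts do not show base 3, so they do not check the label.

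At the gene level the response was broad and shallow. Of 21270 genes tested, 4767 (22.4%) passed an adjusted p of 0.05 in edgeR's quasi-likelihood test, 2214 (10.4%) higher and 2553 (12%) lower in mutant JVM3. Of these, 76.7% had an absolute log2 fold change under 0.5, and 210 rose and 174 fell by 2-fold or more. The median over all genes tested was -0.02. Counts of the groups did not overlap in 4764 of the called genes, but the same held for 59.0% of all genes tested. Shares over all genes tested, given beside the lists below, include genes with few reads. Of the 4767 called genes, 4457 had a mean of at least 1 CPM over the JVM3 libraries. Among genes with a junction measured and none past 20 points, 17.7% fell and 19.9% rose.

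The genes that rose most were of low level in wild-type JVM3. COPZ2, a coat protein of Golgi vesicles, had 5.67 and 6.06 CPM in mutant libraries and 0.813 and 0.957 CPM in wild-type libraries (log2 fold change 2.72 ± 0.18 SE, edgeR adjusted p = 6.17e-16). ZPLD1, a zona pellucida domain protein, had 6.4 and 7.29 CPM in mutant libraries and 0.424 and 0.658 CPM in wild-type libraries. PAPPA2, a protease that cuts an insulin-like growth factor binding protein, had 2.29 and 1.75 CPM in mutant libraries and 0.283 and 0.12 CPM in wild-type libraries. The 12 genes of this set, chosen among genes whose groups did not overlap, ran from 5.34-fold in CSPG5, a brain proteoglycan, to 54.9-fold in DDX59-AS1, whose wild-type libraries were under 0.1 CPM. TMEM151B, C6orf52, COP1-DT, IFT122P3, CNTN4, a neural contactin, and 2 unnamed genes made up the rest. DDX59-AS1 is antisense to DDX59 and IFT122P3 is a pseudogene copy, and with the strand setting of the counting unknown these 2 values are uncertain.

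The gene that fell most among abundant genes was TARS1, with 110.2 and 113 CPM in mutant libraries and 297 and 312 CPM in wild-type libraries, 0.366-fold (log2 fold change -1.45 ± 0.04 SE, edgeR adjusted p = 2.63e-30). Its log2 fold change was -1.59 in HG3 and -1.54 in MEC1. EIF2AK1 had 48.5 and 46.7 CPM in mutant libraries and 90.6 and 88.8 CPM in wild-type libraries (-0.92 ± 0.04 SE, edgeR adjusted p = 8.07e-20). DENND2D had 158.5 and 156.5 CPM in mutant libraries and 284.5 and 282.5 CPM in wild-type libraries (-0.85 ± 0.04 SE). The libraries of each group lay within a few percent of each other in all 3 genes. PHGDH, the first enzyme of serine synthesis, had 48.5 and 53.1 CPM in mutant libraries and 89.2 and 89.5 CPM in wild-type libraries (-0.81 ± 0.05 SE). Its log2 fold change was 0.93 in HG3, which did not pass the test (edgeR adjusted p = 0.174), and -0.19 in MEC1 (edgeR adjusted p = 0.000368). ALDH1L2, a mitochondrial folate enzyme (-0.79), and DTL, a ubiquitin ligase adaptor of DNA replication (-0.73), fell too. Genes of low level that fell most included KCND2, a potassium channel, with 1.006 and 1.78 CPM in mutant libraries and 4.7 and 4.99 CPM in wild-type libraries, and FCRL5, an Fc receptor-like protein of B cells, with 3.54 and 3.21 CPM in mutant libraries and 7.99 and 8.94 CPM in wild-type libraries (-1.34 ± 0.11 SE). LOXL2, TMEM150A, MUC16, PTPRN2, IL23R, the pseudogene SEC24AP1 and 3 unnamed genes completed the set, at 0.31-fold to 0.436-fold. MUC16 lost its call without mutant replicate 2 and without wild-type replicate 1.

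Abundant genes that rose most were led by DDX60, a helicase of the antiviral response, with 311 and 327 CPM in mutant libraries and 184 and 191 CPM in wild-type libraries (log2 fold change 0.77 ± 0.04 SE, edgeR adjusted p = 9.07e-17). GPR15, a homing receptor of lymphocytes, had 114 and 115 CPM in mutant libraries and 72.2 and 73.7 CPM in wild-type libraries (0.65 ± 0.04 SE). Log2 fold changes were below 0 in the other lines, at -0.31 in HG3 and -0.56 in MEC1 for DDX60 and at -0.15 in HG3 and -0.34 in MEC1 for GPR15. MKNK2, a kinase that phosphorylates the cap-binding factor eIF4E, had 1624 and 1605 CPM in mutant libraries and 1038 and 993 CPM in wild-type libraries (0.67 ± 0.05 SE). CCL20, a chemokine (0.75), BRD1, a chromatin reader (0.74), and MAPK8IP3, a scaffold of JNK kinases (0.64), made up the set. BRD1 and MAPK8IP3 also gained junctions, at 33.8% of 74 reads in mutant JVM3 and 1.56% of 64 reads in wild-type JVM3 for BRD1.

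**Figure D3:**
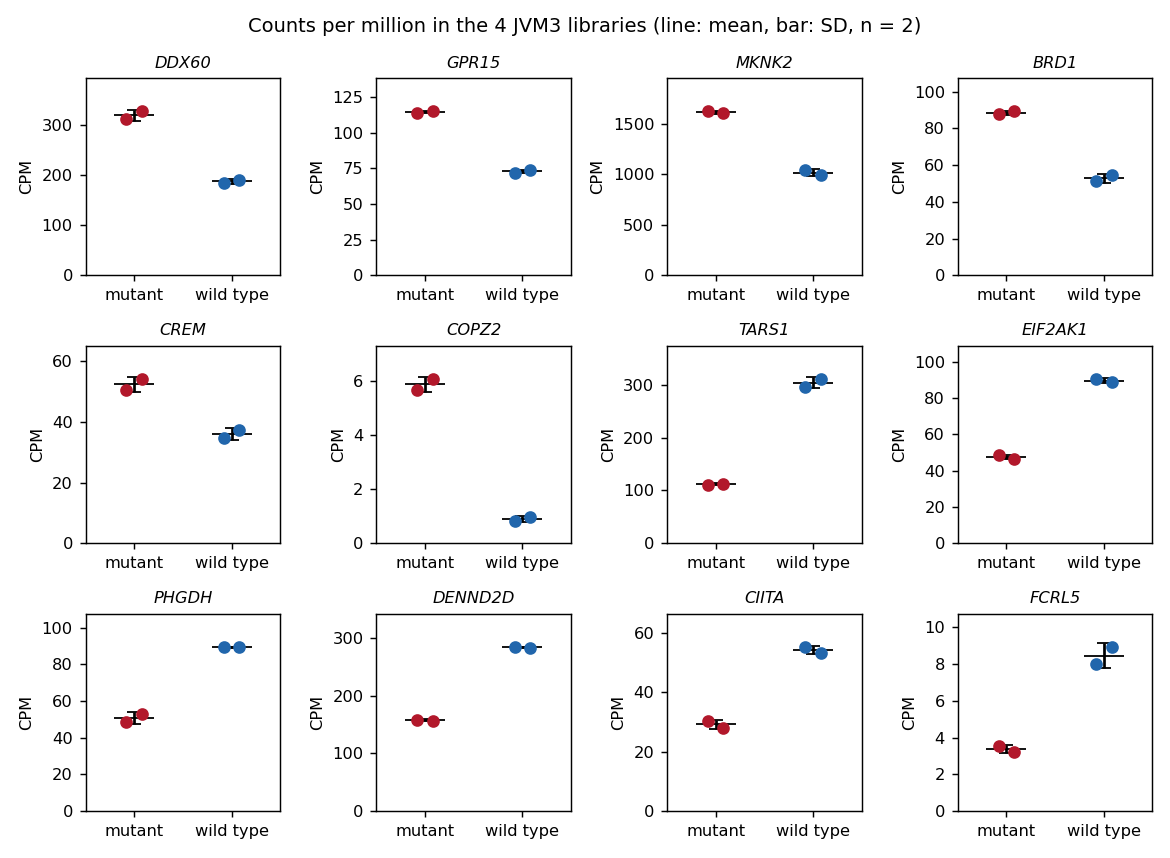
CPM, normalised read counts (vertical axis, from 0) of 12 genes in the 2 mutant and 2 wild-type JVM3 libraries, 1 point per library, with the mean and SD (n = 2 technical replicates). The groups are separate in every panel, from 110.2 and 113 CPM in mutant against 297 and 312 CPM in wild-type libraries for TARS1 to 311 and 327 CPM in mutant against 184 and 191 CPM in wild-type libraries for DDX60.

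Gene counts were set beside the junction changes. Of 48 tested genes that gained an unannotated junction at an annotated acceptor, 27 fell (56.2%) and 4 rose (8.33%), with a median log2 fold change of -0.17. Of 138 genes whose gained junctions were all annotated, 29 fell (21.0%) and 26 rose (18.8%). Of 6628 genes with a junction measured and none past 20 points, 1174 fell (17.7%) and 1320 rose (19.9%), against 12% and 10.4% of all genes tested. FLVCR1 was among those that fell, with 28.7 and 31.3 CPM in mutant libraries and 54.5 and 55.4 CPM in wild-type libraries (-0.87 ± 0.06 SE). WDR43 had 123 and 122 CPM in mutant libraries and 186 and 188 CPM in wild-type libraries (-0.61 ± 0.04 SE). ICE1 (-0.21), MSI2 (-0.26) and TIA1 (-0.185) fell by less. The call of TIA1 was lost without mutant replicate 1 and without wild-type replicate 2. MYSM1, in which the gained junction took 65.2% of reads, had 64.2 and 64.9 CPM in mutant libraries and 64.8 and 65.3 CPM in wild-type libraries, and IL17RB had more in mutant libraries, 161 and 166 CPM against 119 and 122 CPM in wild-type libraries (0.44 ± 0.04 SE). CREM, whose gained junction is annotated, had 50.6 and 54.2 CPM in mutant libraries and 34.7 and 37.3 CPM in wild-type libraries (0.54 ± 0.05 SE), and VPS29 (-0.03) and CCR7 (0.05) did not pass the test. POLD1 fell to 25.7 and 25.3 CPM in mutant libraries, against 36.5 and 39.7 CPM in wild-type libraries (-0.58 ± 0.06 SE), and CD44 had 1233 and 1215 CPM in mutant libraries and 1164 and 1164 CPM in wild-type libraries (edgeR adjusted p = 0.118).

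**Figure D4:**
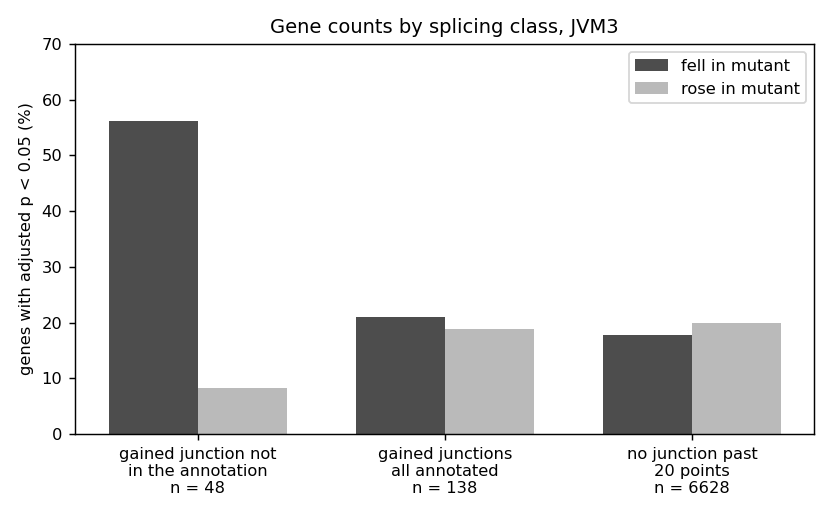
Percent of tested genes that fell or rose (adjusted p under 0.05, vertical axis from 0) in 3 classes of genes by what their junctions did in mutant JVM3. Of genes with a gained junction outside the annotation, 56.2% fell and 8.33% rose, against 17.7% and 19.9% of genes with no junction past 20 points.

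Cell-cycle genes fell in mutant JVM3 almost without exception. Of 40 listed genes 38 fell and 0 rose, with a median log2 fold change of -0.42, where 12% of all genes fell. MCM3, part of the replicative helicase, had 123 and 130 CPM in mutant libraries and 192 and 189 CPM in wild-type libraries (-0.59 ± 0.04 SE). TOP2A, a topoisomerase of dividing cells (-0.53), CENPF, a kinetochore protein (-0.54), and RRM2, a subunit of ribonucleotide reductase (-0.56), were close to it. Of 18 replication-dependent histone genes tested, 16 fell and 0 rose, with a median of -0.38, among them the linker histones H1-5 (151 and 146 CPM in mutant libraries, 205 and 200 CPM in wild-type libraries) and H1-3. Histone copies share sequence, so single members are uncertain, and 26 of the 45 listed had no entry under their symbol. In such bulk libraries fewer dividing cells and less RNA per dividing cell cannot be told apart. The cell-cycle median was -1.0 in HG3 and 0.13 in MEC1.

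Amino acid and mitochondrial lists held more genes that fell than rose, where 12% of all genes tested fell and 10.4% rose. In the integrated stress response list, the genes that ATF4 and its partners switch on when amino acids run short, 17 of 28 fell and 3 rose, with a median of -0.29. PSAT1, which acts after PHGDH in serine synthesis, had 85.02 and 82.5 CPM in mutant libraries and 134 and 130 CPM in wild-type libraries (-0.65 ± 0.04 SE). Of 23 cytoplasmic aminoacyl-tRNA synthetases, the enzymes that load amino acids onto tRNAs, 12 fell and 3 rose, with TARS1 far ahead of LARS1 (-0.47), AARS1 (-0.46) and GARS1 (-0.38). AARS1 is in both lists. Of the 4 kinases that start this response by phosphorylating eIF2 alpha, EIF2AK1 fell and EIF2AK2 rose by 0.10 on the log2 scale, a call that was lost without mutant replicate 2 and without either wild-type replicate. Of 15 genes of the mitochondrial genome 4 fell and 0 rose, with a median of -0.29, among them MT-CO3 at 1354 and 1282 CPM in mutant libraries and 1731 and 1753 CPM in wild-type libraries (-0.40 ± 0.08 SE), a call that was lost when mutant replicate 2 or either wild-type replicate was left out.

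Among genes of MHC class II, through which B cells show peptides to helper T cells, the regulator had less RNA in mutant JVM3. Presentation itself was not measured. CIITA, the coactivator that switches the class II genes on, had 30.4 and 28.0 CPM in mutant libraries and 55.4 and 53.4 CPM in wild-type libraries, 0.537-fold (-0.90 ± 0.05 SE, edgeR adjusted p = 6.89e-18). Of 18 genes in the list 7 fell and 1 rose, with a median of -0.14. HLA-DRA had 603 and 611 CPM in mutant libraries and 729 and 737 CPM in wild-type libraries (-0.27 ± 0.03 SE), and HLA-DQA1 (-0.305) and HLA-DOA (-0.45) fell with it. Alleles of these genes differ between people and reads of related genes can be shared, so counts of single class II genes are uncertain. For 12 of the 18 genes the response was lower in JVM3 than the mean of HG3 and MEC1, and for 1 higher, where 16.6% of all genes differed in either direction. CIITA stood at -0.01 in HG3 and 0.28 in MEC1 (edgeR adjusted p of the difference 3.97e-18).

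Several lists of B-cell genes held more genes that fell than rose, where 12% of all genes tested fell and 10.4% rose. Of 25 B cell identity genes 14 fell and 3 rose (median -0.15), of 30 genes of B-cell receptor signalling 11 fell and 3 rose, and of 17 plasma cell genes 8 fell and 4 rose. PAX5, the factor that holds B-cell identity, had 262 and 253 CPM in mutant libraries and 225 and 216 CPM in wild-type libraries (0.22 ± 0.04 SE), and POU2AF1, a coactivator of Oct factors, had 63.4 and 65.6 CPM in mutant libraries and 79.3 and 77.0 CPM in wild-type libraries (-0.28 ± 0.05 SE). SYK, the kinase next to the receptor, had 39.1 and 41.9 CPM in mutant libraries and 57.4 and 58.3 CPM in wild-type libraries (-0.51 ± 0.05 SE), and the Ras exchange factor RASGRP3 fell by 0.56 and the kinase PRKCB by 0.24 on the log2 scale. Among plasma cell genes IRF4 rose, with 1182 and 1213 CPM in mutant libraries and 990 and 998 CPM in wild-type libraries (0.27 ± 0.03 SE), while PRDM1, a master regulator of plasma cells, had 19.1 and 19.9 CPM in mutant libraries and 27.8 and 28.2 CPM in wild-type libraries (-0.52 ± 0.07 SE). JCHAIN, which links antibody units (-0.61), and TNFRSF17, the receptor BCMA (-0.58), fell. Homing genes were mixed, with 4 of 16 lower and 2 higher: the chemokine receptor gene CXCR4 fell by 0.49 and the integrin ITGB7 rose by 0.38 on the log2 scale. Of 21 apoptosis regulators 3 fell and 5 rose, with BCL2, which blocks cell death, at 425 and 442 CPM in mutant libraries and 549 and 560 CPM in wild-type libraries (-0.36 ± 0.03 SE). Of 27 CLL driver genes 7 fell and 8 rose.

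Genes of the type I interferon response, which cells switch on against viruses, were tested in JVM3, where 10.4% of all genes rose and 12% fell, and against the other lines, where 16.6% of all genes differed in either direction. Of 39 tested, 18 rose and 5 fell, with a median of 0.08, against medians of -0.47 in HG3 and -0.58 in MEC1. For 35 of the 39 the response was higher in JVM3 than the mean of HG3 and MEC1 by edgeR's test of that difference, and for 0 lower. STAT2, a transcription factor of this response, had 430.3 and 440 CPM in mutant libraries and 331 and 333 CPM in wild-type libraries (0.39 ± 0.04 SE), and IFIT2, which binds foreign RNA, had 507 and 512 CPM in mutant libraries and 412 and 418 CPM in wild-type libraries (0.295 ± 0.04 SE). HERC5, a ligase for the ubiquitin-like ISG15, fell, with 129 and 127 CPM in mutant libraries and 180 and 184 CPM in wild-type libraries (-0.50 ± 0.04 SE). STAT2 stood at -0.14 in HG3 and -0.27 in MEC1.

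The lists of NF-kB targets, p53 targets and chaperones held more genes that rose than fell, where 10.4% of all genes tested rose and 12% fell. Of 27 NF-kB targets 12 rose and 1 fell (median 0.11), led by TNFAIP2, with 257 and 263 CPM in mutant libraries and 196 and 183 CPM in wild-type libraries (0.46 ± 0.04 SE), the cytokine subunit EBI3 (0.32), the costimulator CD80 (0.28) and the inhibitor NFKBIA (0.23). Of 25 p53 targets 14 rose and 3 fell (median 0.23). TP53I3, an oxidoreductase, had 21.1 and 22.4 CPM in mutant libraries and 12.1 and 13.99 CPM in wild-type libraries (0.73 ± 0.07 SE), MDM2, which degrades p53, had 1361 and 1414 CPM in mutant libraries and 1129 and 1141 CPM in wild-type libraries, and the growth-arrest genes GADD45A (0.38) and CDKN1A (0.27) rose. Of 18 heat shock chaperones 9 rose and 0 fell (median 0.12), with DNAJB6 at 184 and 190 CPM in mutant libraries and 121 and 125 CPM in wild-type libraries (0.61 ± 0.04 SE) and HSPA8 at 0.29. Genes of protein folding in the endoplasmic reticulum split, 10 of 21 higher and 4 lower: the chaperone CALR rose by 0.34, and the degradation factors EDEM1 (-0.425) and HERPUD1 (-0.30) fell. Of 26 genes of glycolysis and hypoxia 10 rose and 4 fell, with hexokinase HK2 at -0.47.

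Genes of the splicing machinery were both higher and lower, where 12% of all genes tested fell and 10.4% rose. Of 15 genes for proteins of the U1 particle and its helpers 6 fell and 2 rose, with a median of -0.11, among them DDX5, a helicase, with 810 and 839 CPM in mutant libraries and 977 and 1011 CPM in wild-type libraries (-0.27 ± 0.03 SE). Of 22 SR and related splicing factors 5 fell and 3 rose, with SRSF2 at -0.16. Of 7 common Sm proteins 2 rose and 0 fell, and of 16 factors of nonsense-mediated decay, which removes transcripts with early stop codons, 1 rose and 1 fell. Polyadenylation factors (4 rose, 2 fell of 20), cholesterol synthesis (3 rose, 2 fell of 22), MYC targets and ribosome biogenesis (8 rose, 3 fell of 24) and cadherins and catenins (3 rose, 1 fell of 10) had medians between 0.01 and 0.07.

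**Figure D5:**
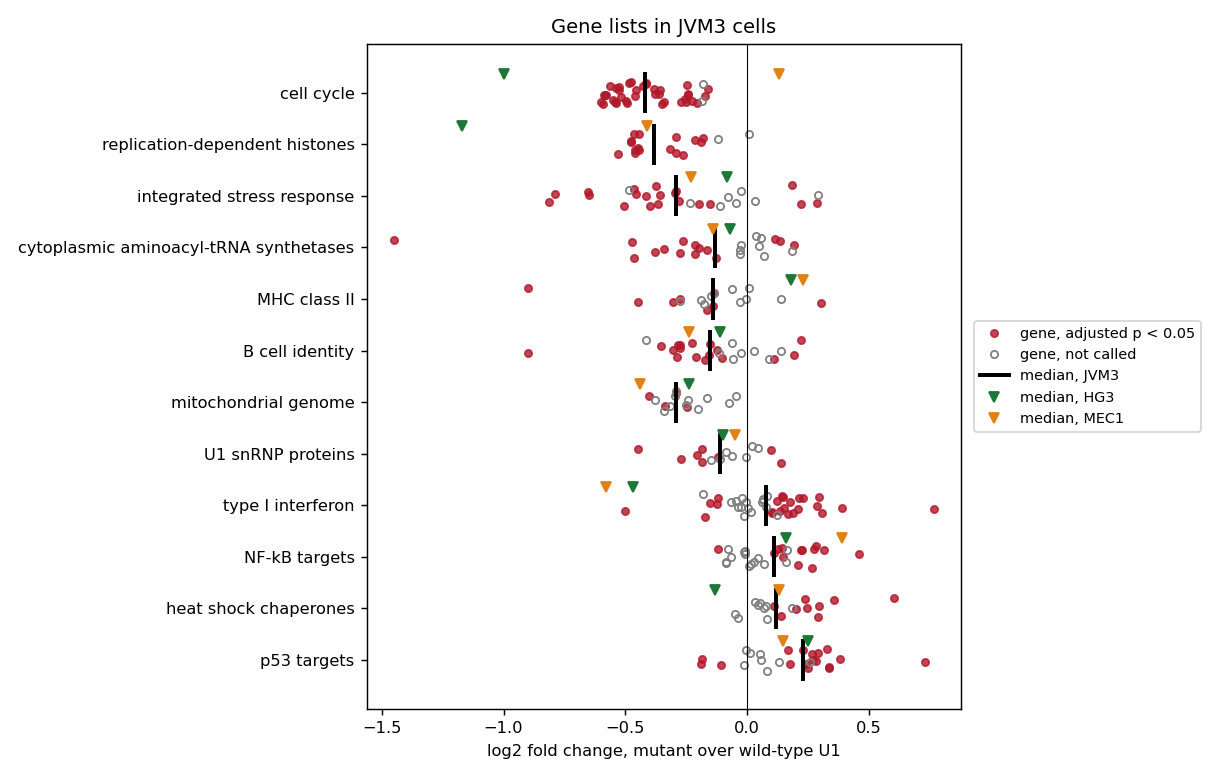
Log2 fold change, mutant over wild-type U1 (horizontal axis), of each tested gene in 12 lists (rows) in JVM3, filled where the adjusted p was under 0.05, with the list's median in JVM3 (line), HG3 and MEC1 (triangles). The JVM3 median of the cell-cycle list lies at -0.42 and that of the type I interferon list at 0.08, where HG3 and MEC1 lie at -0.47 and -0.58.

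The direction of the gene response in JVM3 was set beside that in the other lines. Of the genes that rose, 1457 (65.8%) were also above 0 in both HG3 and MEC1, as were 30.9% of all genes tested. Of those that fell, 1595 (62.5%) were also below 0 in both, as were 30.2% of all genes. Genes that rose by 2-fold or more numbered 210 in JVM3, 935 in HG3 and 614 in MEC1, and those that fell by as much 174, 482 and 333. For the 333 genes that rose by 2-fold or more in HG3 and had at least 1 CPM in JVM3, log2 fold changes had a median of 0.32 in JVM3 and 0.72 in MEC1. For the 236 such genes chosen in MEC1 it was 0.24 in JVM3 and 0.82 in HG3. Genes that fell gave -0.44 in JVM3 and -0.30 in MEC1 when chosen in HG3, and -0.42 in JVM3 and -0.71 in HG3 when chosen in MEC1. Tested directly, the response differed from the mean of HG3 and MEC1 in 3527 genes (16.6%), 1849 higher and 1678 lower in JVM3 (edgeR adjusted p under 0.05). Several of the largest such differences were in genes with no call in JVM3. KCTD15 had 2.44 and 2.96 CPM in mutant and 2.44 and 2.99 CPM in wild-type JVM3 libraries, with log2 fold changes of 5.67 in HG3 and 4.49 in MEC1. LRRN3 had 4.6 and 4.25 CPM in mutant and 4.38 and 3.56 CPM in wild-type JVM3 libraries. It stood at -4.43 in HG3 (edgeR adjusted p = 0.0257) and at -1.09 in MEC1, which did not pass the test (edgeR adjusted p = 0.324). The difference from the mean of HG3 and MEC1 carried an SE of 1.07 in KCTD15 and 0.889 in LRRN3. Levels of these genes in HG3 and MEC1 are not given here, and the minimum of 1 CPM applied to JVM3 alone.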

How the data were processed

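RNA from JVM3, HG3 and MEC1 cells with mutant or wild-type U1 was sequenced from stranded libraries after ribosomal RNA depletion, per the labels' protocols. Per the submitters' processing notes, the tools were STAR (2.5.4b) and HTSeq (0.9.1), on hg19. Strand setting, annotation release and junction filters are not stated there. The authors deposited raw counts per gene for 12 libraries (57820 IDs, of which 39538 could be given a symbol) and raw junction counts in 6 columns, taken as pooled replicates. Entries that name no gene were left out.

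Genes were tested with edgeR 4.0.16 in R 4.3.3 (quasi-likelihood F-test, TMM factors, filterByExpr, Benjamini-Hochberg adjusted p under 0.05) on 12 libraries as 6 groups. The difference between lines was a contrast of the JVM3 response and the mean of the HG3 and MEC1 responses. In simulated counts of the JVM3 comparison 98 of 100 genes changed 2-fold and 100 of 100 changed 4-fold were recovered, with 5 false calls of 20865 genes tested. That simulation gave every gene the same spread and changed only genes above a minimum count. It therefore does not measure false calls, or smaller changes that were missed, in the real counts. DESeq2 1.42.0 was an alternative. CPM are scaled to the TMM-adjusted library size.

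Junction clusters were named by matching exact intron lengths to GENCODE 29, which is on another build. A match needed 3 or more introns and 2 times as many as the next place. Of 43547 clusters 93.6% matched, against 0.18% when offered a wrong chromosome. Coordinates are those of the deposited table, in hg19, as the bases that flank the intron. Donor sequences come from GENCODE 29 transcripts.

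The members and gene lists were chosen with earlier results of these data known. Genes were named by a rule: the 12 that rose and 12 that fell most (mean of at least 1 CPM, groups separate), 6 of each with at least 50 CPM, the first called in each list, the largest differences between lines, and the genes of the largest junction changes. Some genes that the rule names are not reported here. Of 712 list entries 675 were matched. Alternatives were DESeq2, RLE size factors, no filter, a replicate block, a fold threshold of 1.2, the 4 JVM3 libraries alone, each library left out, and other read and point minimums for junctions.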

Additional observations from a re-analysis of the deposited data

Results flagged for a closer look

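The log2 response to mutant U1 differed in 63 of the genes whose response is given, between JVM3 and the mean of HG3 and MEC1 (edgeR contrast, adjusted p under 0.05). Some of these genes were named for the size of that difference or of their change, so their number is not read against the 16.6% of all genes tested. The values below are the JVM3 response minus that mean. In the genes of the largest junction changes and of the study the difference was found in RNU1-1 (-1.41), CREM (-0.49), MYSM1 (-0.21), CCR7 (-0.70), CD44 (-0.31), MSI2 (-0.20) and POLD1 (0.32). Among the genes that rose or fell most the difference was found in DDX59-AS1 (2.02), COPZ2 (1.38), SEC24AP1 (-1.30), TMEM150A (-1.01), FCRL5 (-0.39), PTPRN2 (-0.94) and IL23R (-1.11). Among abundant genes the difference was found in DDX60 (1.2), BRD1 (-0.49), GPR15 (0.90), MAPK8IP3 (-0.57), EIF2AK1 (0.54), DENND2D (0.20), PHGDH (-1.18) and DTL (0.42). Of the amino acid, replication and histone genes the difference was found in LARS1 (0.28), GARS1 (-0.19), MCM3 (0.14), H1-5 (0.51) and H1-3 (0.49). In the interferon list and its kinase the difference was found in HERC5 (0.78), STAT2 (0.59), IFIT2 (0.61) and EIF2AK2 (0.39). In the antigen presentation list the difference was found in CIITA (-1.03), HLA-DQA1 (-0.53), HLA-DRA (-0.46) and HLA-DOA (-0.30). Of the B-cell, plasma cell and homing genes the difference was found in PAX5 (0.17), SYK (0.28), PRKCB (0.16), IRF4 (0.45), PRDM1 (-0.47), CXCR4 (-0.84), ITGB7 (0.41), CD5 (-2.20) and BCL2 (-0.20). Of the NF-kB, p53, chaperone and metabolic genes the difference was found in TNFAIP2 (-0.22), EBI3 (-0.20), CD80 (-0.44), TP53I3 (0.29), DNAJB6 (-0.27), HSPA8 (0.32), CALR (0.16), HERPUD1 (-0.36) and HK2 (0.20). Of the ribosome biogenesis and splicing genes the difference was found in WDR43 (0.23), DDX5 (0.24) and SRSF2 (0.23). Among genes named for the size of their difference it was found in LRRN3 (2.92), LINC02449 (2.90), PTPRJ (2.32), KCTD15 (-5.09), ATP1A4 (-3.34), SLC26A7 (-3.30) and DNAI2 (-3.25).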

How the results depend on the processing

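The 4767 genes called in JVM3 came to 873 (309 higher, 564 lower) when a change had to exceed 1.2-fold, by construction a stricter test, and to 3408 of 14672 with DESeq2. They stayed within 1.5 times under the other alternatives, with 6094 from the 4 JVM3 libraries alone (3234 higher, 2860 lower). Leaving out each JVM3 library in turn gave 3187 to 3290 calls, and 2498 to 2682 in place of 3527 for the difference from HG3 and MEC1, where DESeq2 gave 2559. Deviations of libraries with the same replicate number correlated at 0.0776 for JVM3, 0.129 for HG3 and 0.306 for MEC1. Whether such libraries share a preparation step was not tested, and the main fit leaves the replicate number out. A replicate block gave 5773 calls, 4759 of them shared with the fit without it, and 4444 for the difference. No named gene changed direction in an alternative where it was called there or in the main fit. Changes of sign without a call in either fit were not counted. Of 1005 repeats over the named genes, 51 lost the call, 26 of them under the fold threshold of 1.2, and 6 gained it, RNU1-1 with DESeq2 and with the JVM3 libraries alone. SLC26A7 lost its call when any of the 4 libraries was left out, as did CANT1. Junction counts followed their limits: in place of 442 there were 997 with at least 20 acceptor reads, 210 with at least 100, 2084 past 10 points and 51 past 40 points. In place of 533 junctions read in mutant JVM3 alone there were 1863 with at least 5 reads and 206 with at least 20, and 185 at annotated acceptors. The share of gained donors with G at +6 was 53.7% past 10 points, 54.2% with at least 20 reads, 73.9% with at least 100 and 83.3% past 40 points, where 6 donors were left. Genes with an unannotated gain that fell made up 41.1% of 197 past 10 points and 33.3% of 9 past 40 points. The restriction to annotated acceptors and the alternatives to these shares were chosen after seeing the data. Junctions rest on 1 column per status, so the spread between cultures or replicates of their use is unknown.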
